A study of Mus musculus with 3 samples.

Results

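The regions described here are stretches of open chromatin that were called as peaks in the PDGFB-NLS library and in neither of the other 2 libraries of a mouse glioma series. Overlapping peaks (1 bp) of the 3 peak lists on chromosomes 1 to 19, X and Y were merged into 147229 regions, and 31427 of them (21.3%) held a PDGFB-NLS peak and no peak of PDGFB-WT or Control. They made up 24.9% of the 126024 regions that held a PDGFB-NLS peak (95% exact binomial interval 24.7% to 25.2%), and each was a single PDGFB-NLS peak. Another 47450 regions were called in all 3 libraries, 3009 in PDGFB-NLS and PDGFB-WT, and 44138 in PDGFB-NLS and Control. The calls that chose these regions are a readout, so their count and their level are given as a description.

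Nuclei from dissociated gliomas were profiled by single-cell ATAC-seq. Tn5, a transposase, cuts DNA that is open, and the cuts are counted per barcode, 1 barcode standing for 1 nucleus. The 3 libraries were 1 of PDGFB-NLS overexpression, 1 of PDGFB-WT overexpression and 1 of Control, and the design text describes tumors from in utero electroporation with piggyBac, a transposon that carries a gene into the genome of embryonic brain cells. Control also carries the tissue label glioma. The sources used here do not state strain, age, promoter, the number of pooled animals or the meaning of NLS. After barcodes under 200 counts were left out, PDGFB-NLS held 10996 barcodes and 31177621 counts (median 2767.5 per barcode), PDGFB-WT 7441 barcodes and 7008951 counts (median 821), and Control 2226 barcodes and 31588784 counts (median 13054). PDGFB-NLS shared 118 barcode sequences with PDGFB-WT and 45 with Control. With 1 library per group no difference between groups can be tested, intervals cover at most counting error, and a region missing from a list has an unknown count in that library.

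PDGFB is the B chain of platelet-derived growth factor, a ligand of the receptor kinases PDGFRA and PDGFRB. PDGFRA marks oligodendrocyte precursor cells (OPC), the dividing cells of the brain that give rise to myelinating oligodendrocytes. Promoters of widely used genes tend to be open in most cell types and rich in CpG, whereas distal regions tend to be open in a few cell types, so a peak list depends on which cells a library holds and on how deeply they were read.

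To show what the regions look like where they meet a gene start, 6 promoter windows are printed first. A window ran from 250 bases before to 50 bases after a RefSeq gene start (GRCm38.p6, the assembly of mm10). Of 32851 such windows, 729 (2.22%) lay with at least 150 bases in a PDGFB-NLS-only region and touched no other peak. They belonged to 674 genes, 379 protein-coding genes and 295 long non-coding RNA genes. The printed windows are those with most counts among protein-coding genes whose window lay wholly inside a region more than 1000 bp from any peak of another list. Capitals mark matches, on either strand, to the 7 motif groups searched, and a window without capitals held none.
Adcy5, chr16:35154614-35154913, plus strand: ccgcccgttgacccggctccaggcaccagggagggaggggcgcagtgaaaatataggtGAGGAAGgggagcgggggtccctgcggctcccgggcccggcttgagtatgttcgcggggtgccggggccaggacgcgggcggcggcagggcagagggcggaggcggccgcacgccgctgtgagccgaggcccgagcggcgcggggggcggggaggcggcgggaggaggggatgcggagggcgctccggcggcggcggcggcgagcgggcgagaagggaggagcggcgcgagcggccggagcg
Trp73, chr4:154139826-154140125, minus strand: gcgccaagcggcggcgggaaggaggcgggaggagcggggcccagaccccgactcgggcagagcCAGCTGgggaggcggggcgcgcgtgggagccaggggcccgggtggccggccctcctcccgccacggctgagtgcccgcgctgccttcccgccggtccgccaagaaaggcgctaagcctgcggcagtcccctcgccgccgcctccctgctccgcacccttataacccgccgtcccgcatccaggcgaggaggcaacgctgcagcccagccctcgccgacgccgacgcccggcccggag
Six3, chr17:85620584-85620883, plus strand: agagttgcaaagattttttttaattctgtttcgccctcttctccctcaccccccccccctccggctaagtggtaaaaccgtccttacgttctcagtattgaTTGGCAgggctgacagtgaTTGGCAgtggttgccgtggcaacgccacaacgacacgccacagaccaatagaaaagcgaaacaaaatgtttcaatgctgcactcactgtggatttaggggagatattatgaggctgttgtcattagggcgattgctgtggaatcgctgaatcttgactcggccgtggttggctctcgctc
Rasgrf1, chr9:89909525-89909824, plus strand: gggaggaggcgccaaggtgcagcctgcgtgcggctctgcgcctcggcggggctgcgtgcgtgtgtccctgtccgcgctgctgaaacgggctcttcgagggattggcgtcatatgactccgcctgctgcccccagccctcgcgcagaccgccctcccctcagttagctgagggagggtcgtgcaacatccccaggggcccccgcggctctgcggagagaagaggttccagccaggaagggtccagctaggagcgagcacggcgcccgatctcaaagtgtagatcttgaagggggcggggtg
Sp9, chr2:73271676-73271975, plus strand: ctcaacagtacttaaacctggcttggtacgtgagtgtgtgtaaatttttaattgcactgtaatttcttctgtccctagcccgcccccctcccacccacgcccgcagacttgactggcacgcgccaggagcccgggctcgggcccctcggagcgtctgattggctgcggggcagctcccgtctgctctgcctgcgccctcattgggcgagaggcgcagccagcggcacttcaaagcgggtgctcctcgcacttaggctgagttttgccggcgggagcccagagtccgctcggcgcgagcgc
Egfem1, chr3:29082281-29082580, plus strand: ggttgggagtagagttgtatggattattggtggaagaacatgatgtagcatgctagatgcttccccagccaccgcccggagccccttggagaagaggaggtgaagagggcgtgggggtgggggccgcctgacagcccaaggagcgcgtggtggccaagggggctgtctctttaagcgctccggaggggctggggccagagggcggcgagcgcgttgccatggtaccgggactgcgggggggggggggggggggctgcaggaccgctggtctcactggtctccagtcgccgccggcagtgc
The Adcy5 window holds GAGGAAG, searched as the PU.1 core, the Trp73 window holds CAGCTG, an E-box, and the Six3 window holds TTGGCA, searched as the NFI motif, at 2 places. The Rasgrf1, Sp9 and Egfem1 windows hold no match to the motifs searched.

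The regions behind these windows differed in the nuclei that carried them. The Adcy5 region, at the start of the gene for a cAMP-forming adenylyl cyclase, had 398 counts in 223 barcodes. Of these, 124 fell in the OPC-like class of barcodes described below and 137 in the oligodendrocyte-like class, against 37 in the microglia or macrophage-like class. The Trp73 region, of the gene for the p53 relative p73, had 321 counts that were spread over the classes, with 102 in the microglia or macrophage-like and 95 in the astrocyte-like class. The Six3 region, of a homeobox factor of the forebrain, had 275 counts, 88 of them in the astrocyte-like class. The Rasgrf1 region, of an exchange factor for RAS, had 209 counts, 67 of them OPC-like and 30 inhibitory neuron-like. The Sp9 region, of a zinc finger factor of developing forebrain interneurons, had 205 counts, of which 86 were microglia or macrophage-like. The inhibitory neuron-like class held 34 of the 205, 5.21 times the level of the other barcodes. The Egfem1 region had 196 counts, of which 100 were OPC-like, 5.52 times the level of the other barcodes.

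As a group the 729 windows were poorer in CpG than the promoters that every library opened, and close to the windows called in PDGFB-NLS and Control. Their median was 7 CpG per 300 bases with a GC content of 53.3%, against 8 CpG and 55.7% in the 1849 windows of regions called in PDGFB-NLS and Control, 21 CpG and 62.0% in the 13479 windows of regions called in all 3 libraries, and 7 CpG and 52.7% in all 32851 windows. Motifs were searched by letters on both strands, in groups that do not hold each other's letters. An E-box (CAGCTG or CATCTG), the kind bound by neural basic helix-loop-helix factors, was present in 40.5% of the PDGFB-NLS-only windows (95% interval 36.9% to 44.1%), against 34.0% of the windows called in PDGFB-NLS and Control, 24.5% of those called in all 3 libraries and 30.6% of all windows. The NFI letters TTGGCA were present in 17.6% (14.9% to 20.5%), against 12.9%, 11.1% and 14.1% in the same sets. The shares of both motifs in the other sets lay below these intervals. The ETS core CCGGAAG was present in 3.70% (2.45% to 5.34%), close to the 4.38% of windows called in PDGFB-NLS and Control and below the 17.7% of windows called in all 3 libraries and the 8.86% of all windows. The SOX letters ACAATGG or ACAAAGG were present in 10.7% (8.55% to 13.2%), an interval that held the 8.92% of windows called in PDGFB-NLS and Control and the 9.28% of all windows but not the 6.17% of windows called in all 3. For the AP-1 letters TGAGTCA or TGACTCA, the CTCF core GGTGGCA and the PU.1 core GAGGAAG the share in all windows, 5.20%, 5.49% and 13.6%, lay inside the interval of the PDGFB-NLS-only windows, whose shares were 4.94%, 6.72% and 14.0%. These shares describe letters in promoter windows only, since most of the regions lay away from gene starts.

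Some microRNA genes lay in the regions. Of 1005 RefSeq hairpins, 16 overlapped a PDGFB-NLS-only region and 110 a region called in all 3 libraries, sets that covered 26.8 and 47.1 Mb. Among the 16 were the hairpins of miR-137 (chr3:118433857-118433929, plus strand) and miR-153 (chr12:117250817-117250885, plus strand), both known as microRNAs of neurons. They were chosen for printing after their values were seen. The lines give the mature 3p arms, with the seed, bases 2 to 8, in capitals.
mmu-miR-137-3p: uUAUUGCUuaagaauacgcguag
mmu-miR-153-3p: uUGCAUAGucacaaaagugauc
The 2 seeds differ. The region over the miR-137 hairpin had 67 counts in 38 barcodes and the region over the miR-153 hairpin 39 counts in 21 barcodes.

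Most of the regions were faint. They had a median length of 876 bp and a median of 48 counts (quartiles 36 and 66), found in a median of 25 of the 10996 barcodes (0.227%). Their level was a median of 55.6 counts per kb (quartiles 42.2 and 77.1), against 74.7 in regions called in PDGFB-NLS and PDGFB-WT, 88.5 in regions called in PDGFB-NLS and Control, and 271 in regions called in all 3 libraries. The range ran between 2 and 1390 counts, and 2518 regions (8.01%) had at least 100 counts. Together they covered 26.8 Mb and held 5.69% of the counts of the library. The share was similar in shallow and deep barcodes, at 5.36% in the shallowest quartile of barcodes and 5.61% in the deepest.

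The level of a region, its counts per kb within the library, moved with membership. This level differs between regions of the same library and is not the depth of the library. When the 126024 PDGFB-NLS regions were split into deciles by counts per kb, 60.3% of the lowest decile were PDGFB-NLS-only (95% interval 59.4% to 61.1%), and the share was lower in each higher decile, down to 0.246% of the highest (0.167% to 0.349%). The lower 5 deciles held 88.8% of the PDGFB-NLS-only regions and the upper 3 deciles 1.92%. Regions called in Control only were likewise less frequent in each higher decile of their own library, but at a lower share. They made up 42.0% of its lowest decile and 0.215% of its highest, and in the fifth decile the share was 25.2% in PDGFB-NLS and 10.6% in Control. The bar plot by deciles sets both side by side.

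**Figure D1:**
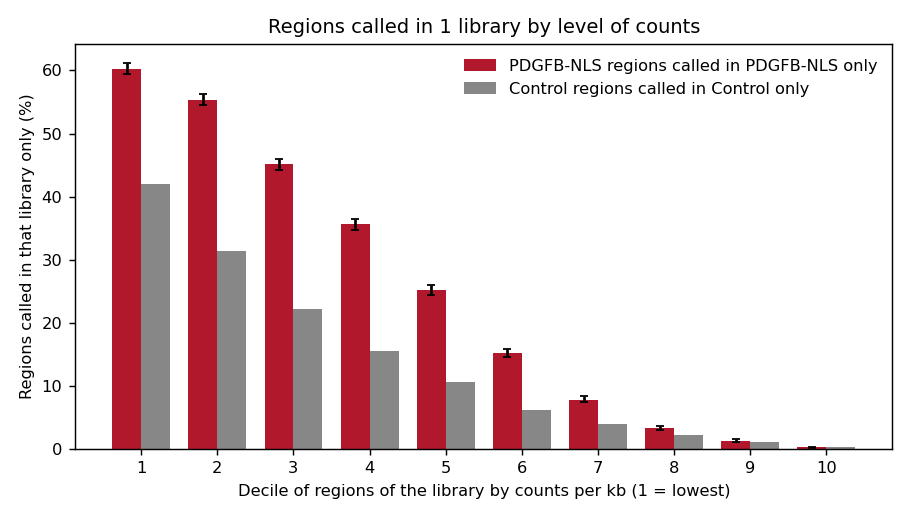
Red bars give the percent of PDGFB-NLS regions called in PDGFB-NLS only, and grey bars that of Control regions called in Control only. Deciles are of counts per kb within each library. Error bars, drawn on the red bars only, are 95% exact binomial intervals. Both shares are highest in the lowest decile, at 60.3% and 42.0%, and under 1% in the highest.

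Counts were then scaled to the depth of the other libraries, by the counts in regions called in all 3. At the depth of PDGFB-WT, 0.275 of that of PDGFB-NLS, the median PDGFB-NLS-only region would have 13.2 counts, and 58.1% of the regions would have at least 12 counts, the 5th percentile of the counts of PDGFB-WT's own peaks. Only 2.37% would have at least 40 counts, its 25th percentile. At the depth of Control, 1.05 times that of PDGFB-NLS, 82.2% of the regions would have at least 34 counts, the 5th percentile of Control's peaks, and 32.3% at least 62 counts, its 25th. Most of the regions thus lay in the low range of the peaks that were called at the depth of Control, and in or below the lowest range at that of PDGFB-WT.

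The strongest regions lay beside regions that all libraries shared. The 10 regions with most counts per kb lay 7 to 172 bp from a region called in all 3 libraries, and 8 of the 10 lay within 1000 bp of a gene end. A gene end here is either boundary of a gene, its start included, as strand was not used. The first region lay 399 bp from such a boundary of Abhd11 (chr5:135009551-135010312). It had 1390 counts in 736 barcodes and lay 51 bp from a shared region. The second was beside Igf1r, the receptor of insulin-like growth factor (chr7:67950870-67951270), with 727 counts, 14 bp from a shared region. Regions of the same kind lay at Hdac2, a histone deacetylase, with 358 counts, at Ezh2, the methyltransferase of Polycomb complex PRC2, with 665 counts, and at Cbx3, a heterochromatin protein gene, with 641 counts. The 10 strongest regions within 1000 bp of a gene end also included those at Gna13, Calm2, Bend3 and Bcan, with 411 to 567 counts and gaps of 52 to 164 bp. At the edge of the rule, the 616 PDGFB-NLS-only regions under 100 bp from a peak of another list had a median of 87.9 counts per kb, and the 305 PDGFB-NLS peaks that overlapped such a peak by 1 to 99 bp had 90.2.

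Most of the regions stood away from other peaks. More than 1000 bp separated 25447 of them (81.0%) from any peak of PDGFB-WT or Control, and their median was 52.98 counts per kb. The 10 of these with most counts per kb, a set chosen after the values were seen, lay in or at Zfp710, Tgif1, Fgf11, Adcy5, Trib1, Ccdc85c (2 regions), Sfmbt2, Caskin2 and Trp73. The Zfp710 region (chr7:80026779-80027295) had 341 counts and 660 counts per kb. The Trib1 region (chr15:59650182-59651063) lay inside the gene for a pseudokinase, 1528 bp from the nearer boundary. It had 398 counts, of which 264 were in microglia or macrophage-like barcodes. The Tgif1 region, of a homeobox repressor of TGF-beta signalling, had 348 counts, 200 of them microglia or macrophage-like.

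The regions lay mostly inside genes and far from gene ends. Gene bodies held 17429 of them (55.5%, 95% interval 54.9% to 56.0%), intergenic DNA 12208 (38.8%), and the 1000 bp around an end of a protein-coding gene 1790 (5.70%, 5.44% to 5.96%). The gene-end share was 8.27% (8.01% to 8.53%) of regions called in PDGFB-NLS and Control and 28.0% (27.6% to 28.4%) of regions called in all 3 libraries. The median distance to the nearest gene end was 27247 bp, against 9086 bp in regions called in all 3. Position and level moved together. The gene-end regions had a median of 71.8 counts per kb, the gene-body regions 58.3 and the intergenic regions 50.5.

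Within deciles of counts per kb, the gene-end share was not lower throughout. It was slightly below that of the other PDGFB-NLS regions in the lowest 3 deciles, at 3.22% against 3.996% in the lowest. From the fourth decile to the ninth it was above that of the others, at 6.17% against 5.54% in the fourth, 22.03% of 413 regions against 13.5% in the eighth and 35.6% of 160 regions against 23.3% in the ninth. In the highest decile, with 31 PDGFB-NLS-only regions, it was 64.5% against 69.4%. The share in gene bodies was higher in the PDGFB-NLS-only regions in each decile, at 46.4% against 44.9% in the lowest and 62.8% against 54.7% in the fifth. Regions called in Control only had nearly the same makeup as those called in PDGFB-NLS only, with 6.33% at gene ends and 56.3% in gene bodies.

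**Figure D2:**
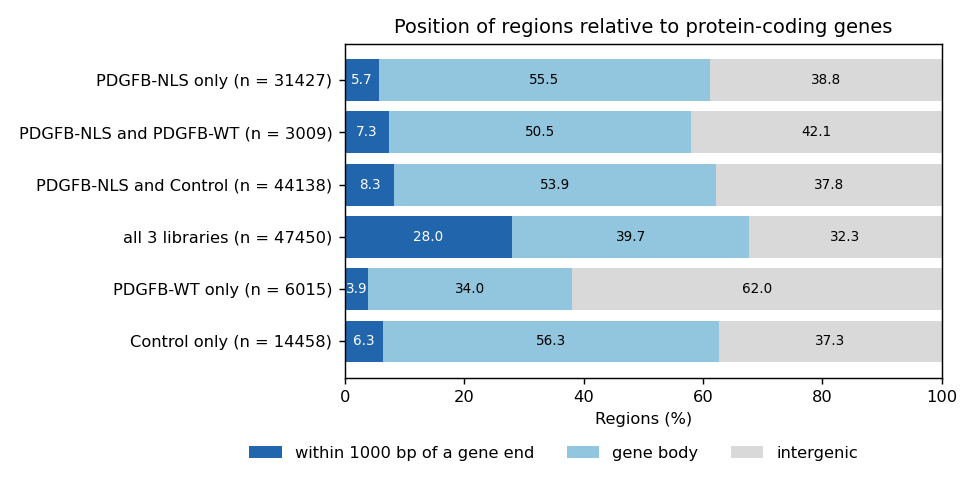
Percent of regions within 1000 bp of an end of a protein-coding gene (dark blue), elsewhere in a gene body (light blue) or intergenic (grey), for 6 of the combinations of peak lists, with the number of regions in each. Regions called in PDGFB-NLS only had 5.70% at gene ends, against 28.0% of regions called in all 3 libraries.

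Every autosome and the X chromosome carried such regions at a similar rate. The share of PDGFB-NLS regions that were PDGFB-NLS-only ran between 21.7% on chromosome 11 and 28.2% on chromosome 18. In 483 windows of 5 Mb with at least 50 PDGFB-NLS regions, the share had a median of 25.3% (quartiles 21.9% and 28.7%) and ran between 7.94% and 47.8%. On a finer scale, 1153 of 18895 windows of 100 kb held 5 or more. The densest, at Nptx1, a neuronal pentraxin of synapses, held 12 in 17 PDGFB-NLS regions (chr11:119500001-119600000). Windows at Cebpb, a factor of myeloid cells, and at Trappc12 and Cmip held 11 each, and one at Six3 held 10 in 15.

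The genes with most of the regions were long. Each region was assigned to the protein-coding gene that contained it, or else to the one with the nearest end. Of 21887 genes, 9886 (45.2%) had at least 1, and 548 had 10 or more, which together took 25.1% of the regions. Gene length moved with this count, as genes with 10 or more had a median length of 235 kb and genes with none 14.1 kb among those with shared regions.

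Sox5, a SOX factor of OPC and of neurons, had the most. It held 41 PDGFB-NLS-only regions among its 65 PDGFB-NLS regions (63.1%), with 19 to 129 counts each and a median of 45. The gene spans 954 kb (chr6:143828425-144782287), and 33 of the 41 lay inside it. Ntm and Lsamp, which encode adhesion proteins of the IgLON family, had 38 each. They were followed by Zfp608 with 36, and by the transcription activator Camta1 and the BAF complex subunit Arid1b with 32 each. Xylt1, whose enzyme starts glycosaminoglycan chains on proteoglycans, the Mediator subunit gene Med13l and Auts2 had 31 each. Tafa5, the cadherin gene Cdh13, the reelin adaptor gene Dab1, the splicing factor gene Rbfox1 and Anks1b had 28 to 30. Zfp608 and Tafa5 differed from the others in that most of their regions lay outside the gene, 31 of 36 and 24 of 30.

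Other genes had few regions that another library shared. Among the 3948 genes with at least 10 PDGFB-NLS regions, the median share of PDGFB-NLS-only regions was 25.9%. Among the genes with the highest shares, Dio3, the deiodinase that inactivates thyroid hormone, Fam78b and Hs3st4, a heparan sulfate sulfotransferase, had 9 of 11 each. 4930474N05Rik, Adamts18, Elmod1 and Tnni3k had 8 of 10, the homeobox gene Six2 11 of 14 and the adenylyl cyclase gene Adcy1 10 of 13. The counts behind them were low, with a median of 49 counts per region at Dio3.

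Gene lists differed in the share of their regions that was PDGFB-NLS-only, with lists of neural genes at the upper end. Over all PDGFB-NLS regions 24.9% were PDGFB-NLS-only. The share was 39.9% (128 of 321 regions) at ionotropic glutamate and GABA-A receptor genes, 35.4% (177 of 500) at cadherin genes, 35.2% (219 of 623) at synapse adhesion and scaffold genes, 33.8% (290 of 859) at axon guidance genes, 33.0% (503 of 1526) at brain developmental transcription factors and 31.0% (132 of 426) at extracellular matrix genes. It was 20.3% at genes of the p53 and RB axis, 19.1% at ETS and AP-1 factors and 22.5% at ribosomal protein genes. Median gene length also differed between these lists, from 471 kb in the synapse list to 3.45 kb in the ribosomal list, and its part in the shares was not tested.

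Genes of PDGF receptor signalling were close to the background in the share of their regions. Of their 439 regions 111 (25.3%) were PDGFB-NLS-only, against 24.9% of all. At least 1 such region was assigned to 26 of the 30 genes (86.7%), against 45.2% of all 21887 genes, of which 17310 had any PDGFB-NLS region. The 30 genes had a median length of 52.5 kb, and the part of gene length and region number in the 86.7% was not tested. Spred2, an inhibitor of RAS to ERK signalling, had 13 of 39 and Pik3r1, the regulatory subunit of PI3-kinase, 12 of 49. The receptor gene Pdgfra had 8 of 21, Pdgfrb 2 of 12 and Pdgfb 2 of 12. Chromosome segregation and cohesin genes had 51 of 211 (24.2%), of which Mad1l1, a spindle checkpoint gene, had 18 of 48 and Nuf2, a kinetochore gene, 8 of 21. HOX genes had 17 of 70 (24.3%).

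The other families are illustrated by their leading genes. In the receptor list the kainate receptor genes Grik3 and Grik4 had 20 of 42 and 17 of 36. In the synapse list Csmd2 had 24 of 40 and Dlgap2 23 of 38. Among cadherins Cdh13 had 30 of 68 and Cdh4 19 of 33, and among axon guidance genes Sema5a had 20 of 41 and Slit3 19 of 44. The glypican genes Gpc6 and Gpc5 had 21 of 35 and 16 of 43. Ets1 had 16 of 53 and Bach2 15 of 70. At Rps24, 19 of the 29 regions of the ribosomal list were found, assigned by nearest gene end.

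Marker genes of cell types differed as well. At OPC markers 103 of 295 regions (34.9%) were PDGFB-NLS-only, led by Xylt1 with 31 of 65 and Sox6, another SOX factor of this lineage, with 21 of 53. Together with Tnr, at 15 of 42, these genes held most of the 103. They span 287 kb (Xylt1), 570 kb (Sox6) and 408 kb (Tnr), and the part of these long genes in the list's share was not tested. The share was 37.7% (49 of 130) at markers of excitatory neurons, 32.9% (23 of 70) at those of inhibitory neurons and 33.5% (73 of 218) at those of neural progenitors. It was 12.3% (15 of 122) at oligodendrocyte markers, 15% (27 of 180) at endothelial markers, 15.7% (21 of 134) at microglia or macrophage markers, 18.3% (19 of 104) at mural or fibroblast markers and 27.1% (57 of 210) at astrocyte markers. The lymphocyte list, at 37.3% (22 of 59), owed 17 of its 22 regions to Bcl11b, which is also a marker of cortical neurons. Npy, the neuropeptide Y gene of interneurons, had 6 of 9, and the astrocyte transporter gene Slc1a2 10 of 21.

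**Figure D3:**
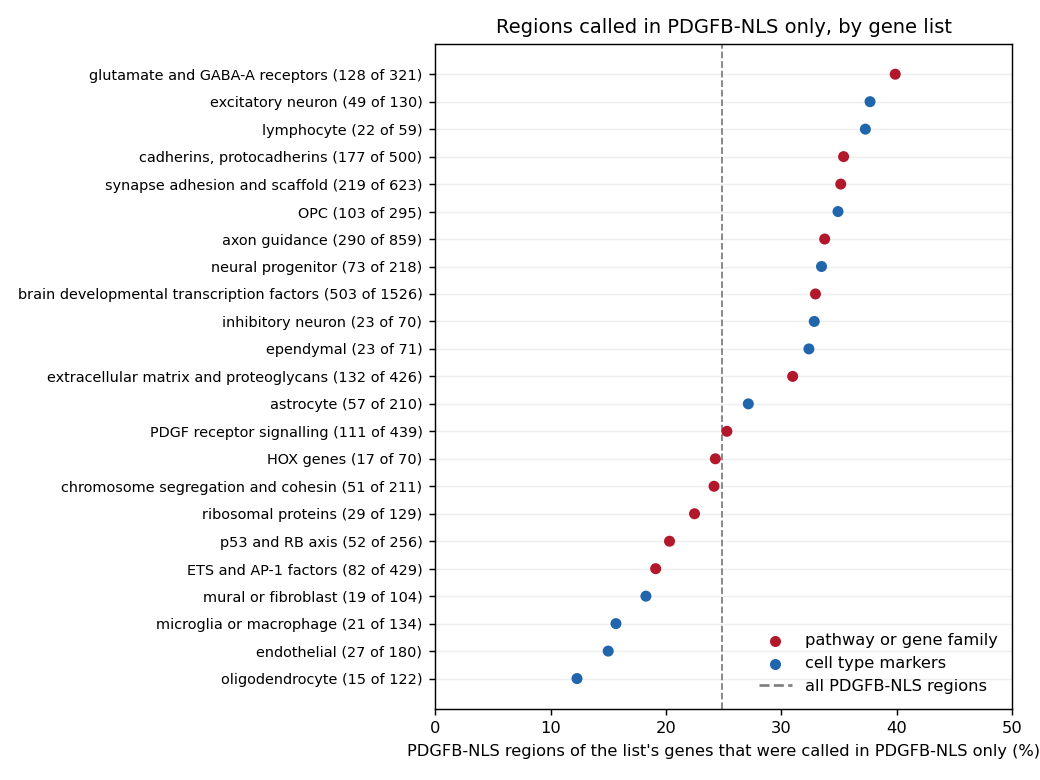
Percent of the PDGFB-NLS regions assigned to the genes of each list that were called in PDGFB-NLS only, with the counts in parentheses, for lists with at least 50 regions; red points are pathways or families, blue points cell type markers, and the dashed line is the 24.9% of all PDGFB-NLS regions. Receptor genes stand at 39.9% and oligodendrocyte markers at 12.3%.

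Shared regions of the same genes were compared between libraries. Counts in regions called in all 3 libraries were summed per gene and scaled to a total of 1000000 per library (CPM), over 12898 genes with at least 100 counts in each library. These comparisons use the libraries that set the rule and share the PDGFB-NLS library, so they are a description. In 50.8% of all genes PDGFB-NLS was above Control, and in 54.4% it was above PDGFB-WT. Among the 538 genes with 10 or more PDGFB-NLS-only regions, the median log2 ratio of PDGFB-NLS over Control was 0.16 (quartiles 0.01 and 0.38), and 77.1% were above Control. Among the 5263 genes with none it was -0.02 (-0.12 and 0.09). Against PDGFB-WT the medians were -0.20 (-0.39 and -0.03) in genes with 10 or more and 0.09 (-0.08 and 0.25) in genes with none.

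Single genes differed widely. The shared regions of Sox5 had 115 CPM in PDGFB-NLS, 129 CPM in PDGFB-WT and 50.5 CPM in Control, a log2 ratio of 1.18 over Control and -0.17 over PDGFB-WT. Those of Xylt1 had 189, 281 and 106 CPM in PDGFB-NLS, PDGFB-WT and Control, with log2 ratios of 0.83 over Control and -0.57 over PDGFB-WT. The shared regions of Pdgfra had log2 ratios of 0.73 over Control and -0.25 over PDGFB-WT. In contrast, Med13l, with 31 PDGFB-NLS-only regions, had a ratio of -0.01 over Control. The shared regions of Xylt1 and Sox5 were thus above Control in either PDGFB library.

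The nuclei that carried the regions were then examined. PDGFB-NLS barcodes were clustered on the regions called in all 3 libraries, so that the PDGFB-NLS-only regions took no part, and the 6 clusters were named from marker genes scored without those regions. They were 2907 microglia or macrophage-like barcodes (26.4%, immune cells), 2865 astrocyte-like (26.1%) and 2097 oligodendrocyte-like (19.1%). The others were 1515 OPC-like (13.8%), 1167 endothelial-like (10.6%) and 445 inhibitory neuron-like (4.05%). The microglia or macrophage-like cluster had Csf1r and Cx3cr1 at log2 ratios of 4.48 and 4.20 over the other barcodes, the oligodendrocyte-like cluster Mog at 4.52, and the OPC-like cluster Pdgfra at 1.57 and Neu4 at 3.84. In the OPC-like cluster the median log2 ratio was 1.57 for OPC markers and 0.96 for inhibitory neuron markers. Markers of the inhibitory neuron-like cluster were mixed, with a median of 1.80. Slc32a1 was at 3.01 and Gad1 at 1.83, but Pvalb at 0.15 and Dlx6 at -0.44. The astrocyte-like and the inhibitory neuron-like cluster had no marker of their own among their 10 leading genes. The leading genes of the astrocyte-like cluster included Mlc1 and Gli3, and also Fezf2, a marker of excitatory neurons.

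Inhibitory neuron-like, OPC-like and oligodendrocyte-like barcodes had larger shares of their counts in the regions than immune-like and vascular-like ones. PDGFB-NLS-only regions took 9.31% of the counts of inhibitory neuron-like barcodes, 8.57% of OPC-like and 8.04% of oligodendrocyte-like barcodes. They took 4.96% in astrocyte-like, 3.56% in endothelial-like and 3.32% in microglia or macrophage-like barcodes. Each interval was within 0.1 percentage points of its value, with counts within the library taken as independent. Per barcode the median share was 8.17% (quartiles 6.86% and 10.1%) in the OPC-like class and 3.06% (2.67% and 3.54%) in the microglia or macrophage-like class. The classes were not equally deep, with medians of 3149 counts in OPC-like and 3439 in microglia or macrophage-like barcodes but 1732 in endothelial-like ones. In each quartile of barcode depth the OPC-like share, 8.30% to 9.11%, stood above the microglia or macrophage-like share, 3.08% to 3.51%. The inhibitory neuron-like share was 12.8% in the shallowest quartile and 8.35% in the deepest, where the OPC-like share was 8.30%.

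Regions of the same level but called in other combinations were carried by other nuclei. Among regions with 42.2 to 77.1 counts per kb, OPC-like barcodes gave 23.7% of the counts in PDGFB-NLS-only regions, 35.5% in regions called in PDGFB-NLS and PDGFB-WT, and 12.4% in regions called in PDGFB-NLS and Control. Oligodendrocyte-like barcodes gave 27.8% in PDGFB-NLS-only regions, 13.6% in those shared with PDGFB-WT and 20.6% in those shared with Control. Microglia or macrophage-like barcodes gave 18.4%, 10.3% and 36.1% in the same sets.

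**Figure D4:**
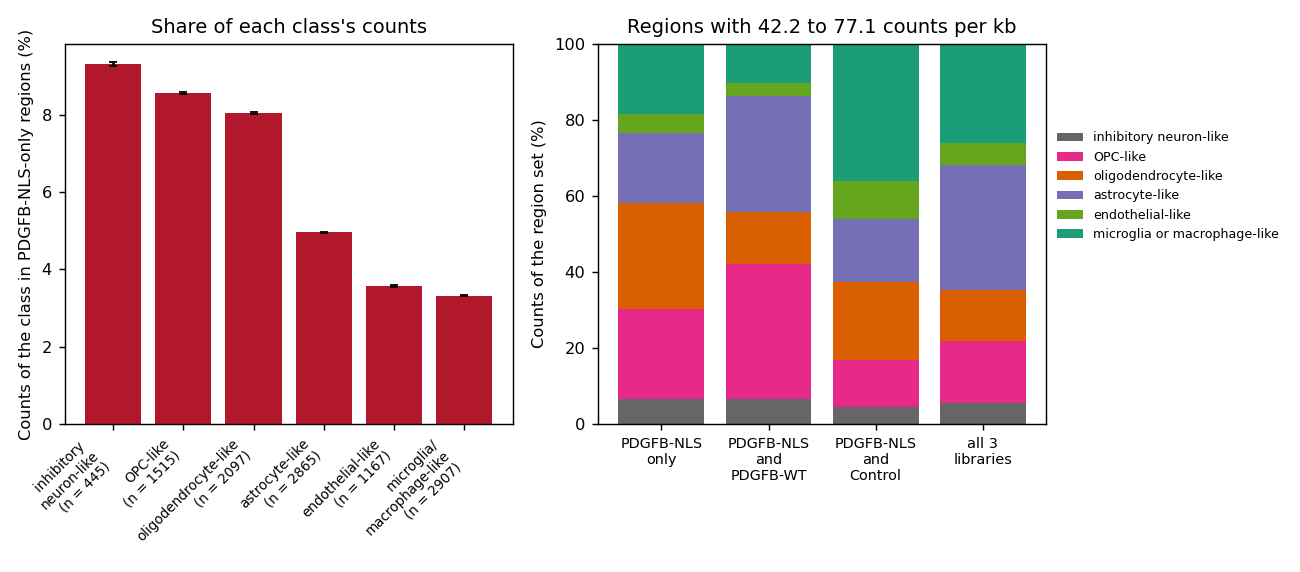
Left, percent of the counts of each class of PDGFB-NLS barcodes that fell in regions called in PDGFB-NLS only, with 95% exact intervals and the number of barcodes; right, percent of the counts of 4 sets of regions of equal level that came from each class. The left bars run between 9.31% and 3.32%, and the OPC-like part of the right bars is 23.7% in PDGFB-NLS-only regions and 12.4% in regions also called in Control.

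The makeup of the libraries moved with these values. Clustered in the same way, OPC-like barcodes gave 15.9% of the counts in PDGFB-NLS, 31.2% in PDGFB-WT and 2.40% in Control (13.8%, 26.8% and 2.61% of barcodes). Oligodendrocyte-like barcodes gave 20.5% of the counts in PDGFB-NLS and 25.5% in Control, and PDGFB-WT had no cluster of that name. The OPC-like cluster of PDGFB-WT had OPC markers at a median log2 ratio of 1.52 and oligodendrocyte markers at 0.94, with the OPC marker Gpr17 and the oligodendrocyte marker Cldn11 among its 10 leading genes, and whether it also held oligodendrocytes was not tested. Microglia or macrophage-like barcodes gave 32.5%, 30.6% and 36.1% of the counts of PDGFB-NLS, PDGFB-WT and Control. The part of this makeup in the calls was not tested. In lists called on whole libraries, fewer nuclei of a class and less open chromatin per nucleus cannot be told apart.

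Single regions were often led by 1 class. A region was called class-led when its CPM in 1 class was at least 4 times that in the other barcodes, with at least 20 counts in the class. Of the 2518 PDGFB-NLS-only regions with at least 100 counts, 1317 (52.3%) were class-led, against 40.0% of all 62486 PDGFB-NLS regions at that count. That share was below the 57.2% of regions called in PDGFB-NLS and Control and the 63.6% of regions called in PDGFB-NLS and PDGFB-WT, and above the 31.7% of regions called in all 3 libraries. The sets differed in level, as 236 of the 2518 had 200 counts or more, against 30083 of 41814 regions called in all 3. From 100 to under 200 counts the class-led share was 54.4% in PDGFB-NLS-only regions and 47.3% in regions called in all 3. It was 57.6% in regions shared with Control and 68.0% in regions shared with PDGFB-WT. Oligodendrocyte-like barcodes led 587 of the 1317 regions, OPC-like 370, microglia or macrophage-like 166, astrocyte-like 97, inhibitory neuron-like 73 and endothelial-like 24. The rule was not equally strict for each class, so these numbers do not rank the classes. Shares of the library's counts ran from 3.68% in inhibitory neuron-like to 32.5% in microglia or macrophage-like barcodes, and the floor of 20 counts asks more of a small class. The OPC-led share was 14.7% in PDGFB-NLS-only regions, 45.2% in regions shared with PDGFB-WT, 2.13% in regions shared with Control and 3.79% in regions called in all 3. The microglia or macrophage-led share was 6.59%, 0.873%, 24.96% and 12.7% in the same sets.

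With regions of at least 50 counts included, 8147 of 14739 PDGFB-NLS-only regions (55.3%) were class-led, against 58.2% of regions shared with Control, 67.3% of regions shared with PDGFB-WT, 34.2% of regions called in all 3 and 46.8% of all PDGFB-NLS regions at that count. From 50 to under 100 counts the share was 55.9% in PDGFB-NLS-only regions, close to the 56.8% in regions called in all 3. The genes with most OPC-led regions were the phosphatase receptor gene Ptprg and Sox5 with 8 each, and Camta1, Prdm2 and Sox6 with 7 each. OPC markers, among them Pdgfra, Sox6, Tnr and Xylt1, held 23 of the 2298 OPC-led regions. At these markers lay 103 PDGFB-NLS-only regions of any count. Over all PDGFB-NLS-only regions with at least 50 counts, 15.6% were OPC-led and 21.7% oligodendrocyte-led. The 103 include fainter regions, so 23 of 103 is not on that base. Oligodendrocyte-led regions were most frequent at Hivep3 with 9, and at Agap1 and Tafa5 with 8 each. Of the 3200, 3 lay at oligodendrocyte markers, 1 each at Mobp, St18 and Ugt8a, where 15 PDGFB-NLS-only regions of any count lay at all markers of that list. Microglia or macrophage-led regions were most frequent at Cebpb and Lrch1 with 5 each. Astrocyte-led regions were most frequent at Sash1 and Slc6a11, a GABA transporter of astrocytes, with 5 each. Markers of their own class held 8 of the 1074 microglia or macrophage-led and 10 of the 1021 astrocyte-led regions. They held 1 of the 331 inhibitory neuron-led and 0 of the 223 endothelial-led regions.

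The 3 regions with the highest ratio for each class, among regions with at least 100 counts, lay at genes of varied function. They were picked by these same counts, and the intervals of their ratios make no allowance for that choice. A region in Ikzf1, the gene of the blood cell factor Ikaros (chr11:11693831-11694705), had all of its 104 counts in microglia or macrophage-like barcodes, and the lower 95% limit of its ratio to the other barcodes was 57.5. A region in Tfec, a factor of macrophages (chr6:16891522-16892511), had 107 of its 111 counts there. A region nearest to Bach1, a heme-sensing repressor, had 118 of 124. All 3 were nearly confined to that class.

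A region nearest to Gnas, the gene of a stimulatory G protein subunit (chr2:174226048-174227045), had 120 of its 128 counts in OPC-like barcodes, 79.5 times the level of the others (95% interval 39.1 to 188), and lay 56542 bp from any other list's peak. Regions at Ankfn1 and Tmem132e had 98 of 114 and 95 of 111 counts there. In oligodendrocyte-like barcodes the leading regions were nearest to Atp23 with 97 of 103 counts, Acvr2a, an activin receptor gene, with 134 of 146, and in Lhcgr with 97 of 106. The Acvr2a region lay 947590 bp from the nearest gene end, so the gene name marks position only.

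Astrocyte-like barcodes held 107 of the 131 counts of a region in Slc1a2, the gene of the main glutamate transporter of astrocytes (chr2:102759156-102760004), 17.9 times the level of the others (11.4 to 29.1). Regions in Alpk3 and Sap30bp had 107 of 122 and 91 of 109 counts there. Endothelial-like barcodes held 78 of the 171 counts of a region in Notch1, a receptor of vessel development, 10.4 times the level of the others, and 80 of 129 and 74 of 125 in regions at N4bp3 and Spsb1. A region near Th, the gene of tyrosine hydroxylase (chr7:142902676-142903599), was led by inhibitory neuron-like barcodes with 46 of 105 counts, 20.4 times the level of the others (13.6 to 30.6), but OPC-like barcodes held 40. Those at Serinc2 and Gmppa likewise had 40 counts each in inhibitory neuron-like and 38 and 41 in OPC-like barcodes.

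**Figure D5:**
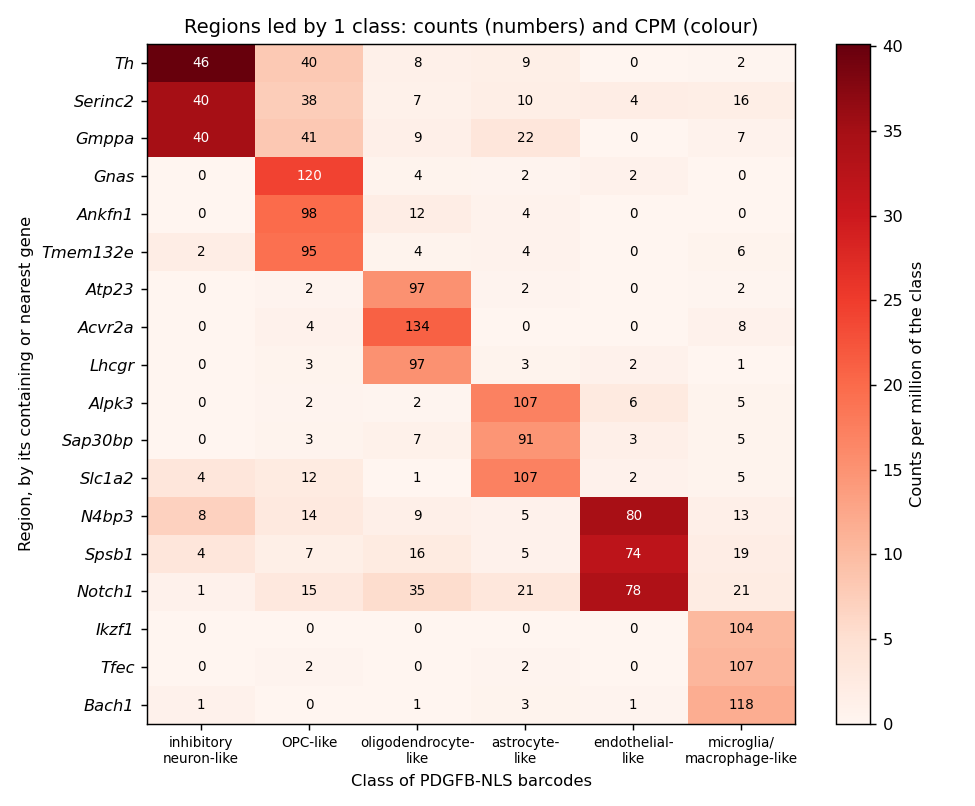
Counts (numbers) and CPM within the class (colour) of 18 regions called in PDGFB-NLS only, the 3 with the highest ratio for each of 6 classes among regions with at least 100 counts. Microglia or macrophage-led regions have at most 3 counts in any other class, whereas the inhibitory neuron-led regions at Th, Serinc2 and Gmppa have 38 to 41 counts in OPC-like barcodes.

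In each of the 6 marker lists whose class had a cluster, the PDGFB-NLS-only regions, which had no part in the naming, were highest in that class. The 103 regions at OPC markers had 431 CPM in OPC-like barcodes and 33.4 CPM in microglia or macrophage-like ones. The 21 regions at microglia or macrophage markers had 79.6 CPM in that class and 16.4 CPM in OPC-like barcodes. The 57 at astrocyte markers had 222 CPM in astrocyte-like barcodes, and the 15 at oligodendrocyte markers 86.8 CPM in oligodendrocyte-like barcodes. The 49 at markers of excitatory neurons, a type with no cluster of its own here, had 216 CPM in inhibitory neuron-like and 168 CPM in OPC-like barcodes. Inhibitory neuron-like barcodes were high over all PDGFB-NLS-only regions, at 1.64 times the level of all barcodes, and OPC-like ones at 1.51 times. The 23 regions at inhibitory neuron markers reached 2.41 times in inhibitory neuron-like barcodes, and those at lymphocyte and neural progenitor markers, types with no cluster here, were as high there at 2.44 and 2.55 times.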

How the data were processed

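Per the file headers, cellranger-atac 2.1.0 made the deposited matrices. Cell Ranger 8 and mm10 stand in the submitters' processing notes. The authors deposited raw cut-site counts per peak and barcode, without normalization, and 1 peak list per library. Caller settings and the rule for cells are not stated in these sources. Rows on other contigs and barcodes under 200 counts were left out. Members, lists, motifs and tests were chosen with earlier results of these data known. Genes were placed by RefSeq (GRCm38.p6, 21887 protein-coding genes, no strand). No genome was used, so motifs were searched only in RefSeq promoter windows of 300 bases and sequences of other regions are not shown.

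Regions found in at least 1% of barcodes (28537) were weighted by TF-IDF and reduced to components 2 to 30, joined to 15 neighbours and clustered with Leiden at resolution 0.6 (scanpy 1.11.5, scikit-learn 1.9.0, igraph 0.11.9, Python 3.11.15). A cluster was named by the list whose markers (at least 3) had the highest median log2 ratio over other barcodes, if at least 1. Doublets were kept, and leaving out the 1471 barcodes (13.4%) marked by Scrublet was an alternative. Intervals are exact (Clopper-Pearson, 95%) and take each count as independent. In PDGFB-NLS 87.9% of the nonzero entries were 2 and 8.70% were odd, so counts mostly came in pairs. Intervals on counts are therefore narrower than the counting error, and PCR reads are not independent molecules either. Named items were the 10 regions with most counts per kb, the 10 with most counts at gene ends, the 15 genes with most regions, the 10 with the highest share, 2 genes per list and 3 regions per class; Pdgfra, Pdgfrb, Pdgfb, microRNAs, promoters and the 10 isolated regions were chosen after their values were seen. A few genes that these rules name are not reported here. Merging, gene assignment and class calls were tested on simulated data.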

Additional observations from a re-analysis of the deposited data

How the results depend on the processing

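The number of regions, 31427, was 27161 with peaks merged within 500 bp, 31427 by direct overlap and 25447 at more than 1000 bp from other lists' peaks, an alternative added after the data were seen. It was 2518 with PDGFB-NLS peaks of at least 100 counts and 1953 with as many PDGFB-NLS peaks as PDGFB-WT has, the strongest per kb. Both leave out faint peaks by construction. Their median level, 20.5% of that of regions called in all 3, was 20.8% in fragments, 21.0% read as open or not, and 20.4% with barcodes of at least 1000 counts. The share at gene ends, 5.70%, was 9.47% within 2000 bp, 11.5% with all annotated genes, 4.82% for isolated regions and 13.9% for regions of at least 100 counts. Genes with a region numbered 9886, and 1968 with at least 100 counts per region. The difference in median log2 ratio of shared regions between genes with 10 or more regions and genes with none, 0.19 over Control and -0.28 over PDGFB-WT, was 0.19 and -0.29 in fragments and 0.18 and -0.26 with at least 300 counts. The ratio of the OPC-like to the microglia or macrophage-like share of counts, 2.58, was 2.55 and 2.64 at resolutions 0.3 and 1.0, 2.51 with barcodes of at least 1000 counts, 2.94 without marked doublets and 2.51 in fragments. The cause of the moves not named above was not tested. With barcodes thinned to 1000 counts the ratio was 2.58, and no inhibitory neuron-like cluster was named, with 801 shallower barcodes left out. The order of the leading classes was not stable. After thinning, the regions took 8.58% of the counts of oligodendrocyte-like barcodes and 8.48% of OPC-like ones. At resolution 1.0 they took 11.1% in an unnamed cluster of 169 barcodes, 8.73% in OPC-like and 8.72% in inhibitory neuron-like barcodes. No paired analysis was possible because the groups share only replicate number 1. Depth limits what a missing call means, and the counts of these regions in the other libraries were not analysed here.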
